A study of Mus musculus with 12 samples.

Results

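The genes of the activator protein 1 (AP-1) factors were examined in the chromatin accessibility data of mouse regulatory T cells (Treg). They were Fos, Fosb, Fosl1 and Fosl2 of the Fos family, Jun, Junb and Jund of the Jun family, and Atf3. A region was taken as a member when it overlapped one of the 8 gene bodies or the 20 kb on either side of it in the mm9 build. This gave 76 of the 118680 regions in the series, and 62 of them were read deeply enough to be tested among 69957 tested regions. The rule used position alone and no measured value. Open regions were mapped with ATAC-seq, in which a transposase cuts and tags exposed DNA. A level is given as FPKM, the reads in a region scaled to its length and to the counted reads of the library.

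The 12 libraries fell into 4 groups of 3. WT libraries came from Foxp3-YFP-Cre mice and Ikzf1-cko libraries from Ikzf1-fl-Foxp3-YFP-Cre mice, so both genotypes carried the Foxp3-YFP-Cre allele and differed in the floxed Ikzf1 gene, which encodes Ikaros. Foxp3 drives the Cre, so deletion was directed to Foxp3-expressing cells, and YFP+ cells were sorted, 100000 per library. The paper's section on purification names spleen and lymph node as the source of its T cells. Each genotype was taken ex vivo, without stimulation, or after 4 hr on plate-bound anti-CD3 and anti-CD28, and an age for these mice is not given in the sources used here.

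AP-1 is a dimer of basic leucine zipper proteins. Jun proteins pair with each other or with Fos proteins, Atf3 pairs with Jun proteins, and the dimers bind short palindromic sites at many T cell enhancers. Most of these genes belong to the immediate early class: signals from the T cell receptor and CD28 act through MAP kinases on factors already bound at their promoters, and serum response factor bound to a CArG box is the classical route to Fos transcription.

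The counted reads ran from 4808916 to 15355521 per library, and every Ikzf1-cko library held more than every WT library. The stimulated WT libraries stood apart: the weakest 20% of tested regions took 6.90% to 8.37% of their reads and 2.02% to 3.99% of the reads of the other 9 libraries, and the strongest 20% took 56.9% to 59.1% against 63.3% to 68.9%. Where an offset that evens out this dependence on region strength ended a result or changed it most, its value is given as well. The median log2 difference of all tested regions between Ikzf1-cko and WT was -0.13 ex vivo and -0.11 after stimulation with library totals as the scale, and TMM factors moved these medians by 0.12 and 0.07. Of 7 Treg and T cell marker genes, 6 had a region at the start site, with a summed level of 109 to 160 FPKM per library, and Ikzf2 had none. Among markers of other cells, a start-site region was found for Ebf1 of 5 B cell genes, Cebpa of 5 myeloid genes, Klrd1 of 3 NK cell genes and Gata1 of 3 erythroid genes, and for both CD8 T cell genes. The CD8 pair summed to 20.7 to 24.2 FPKM in ex vivo WT and 10.8 to 14.6 FPKM in ex vivo Ikzf1-cko, Klrd1 was at 8.18 to 9.23 and 3.29 to 4.43 FPKM, and Cebpa was at 13.1 to 14.9 and 18.6 to 20.9 FPKM. The part of these shifts in the results was not tested. The Ikzf1 start-site region, OCR_16469, was open at 16.4 to 24.2 FPKM in all libraries. The deleted part of the gene is not given in the sources used here, so this level does not check the genotype labels.

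Sequence at these loci was read from the mm9 genome, with letters searched on both strands. The CArG box is shown first because 6 of the 76 regions (7.89%) held one, as did 2.33% of all 118479 regions on the named chromosomes. None of the 8 genes had a CArG box in the 250 bases before the annotated start, where 1.34% of 22367 protein-coding genes had one. The Fos and Fosb boxes began 309 and 272 bases before the start, inside the accessible start-site regions. Each is printed in capitals within 15 bases on each side, on the strand of the gene.
Fos start-site region, chr12:86814516-86814555, plus strand: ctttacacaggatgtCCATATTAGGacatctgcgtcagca
Fos downstream region, chr12:86827049-86827088, plus strand: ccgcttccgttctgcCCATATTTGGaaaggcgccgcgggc
Fosb start-site region, chr7:19895642-19895681, minus strand: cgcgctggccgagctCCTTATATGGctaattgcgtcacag
Junb downstream region, chr8:87500508-87500547, minus strand: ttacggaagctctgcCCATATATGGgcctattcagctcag
Junb upstream region, chr8:87504043-87504082, minus strand: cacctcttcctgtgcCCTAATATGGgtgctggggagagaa
Hook2 start-site region in the Junb window, chr8:87514268-87514307, minus strand: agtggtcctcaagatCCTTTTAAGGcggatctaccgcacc

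The AP-1 site itself, TGANTCA, was found in 18 of the 76 regions (23.7%), close to the 20.2% of all regions that held it. No 250-base upstream window of the 8 genes contained it, while 6% of all such windows did. The most matches, 4 in 1396 bases, lay in OCR_108734, 6.5 kb upstream of Junb. Of 4319 regions within 10% of that length, 29.2% held at least 1. OCR_8546, 10.1 kb upstream of Atf3, held 2, as did OCR_99064 at Fosb, OCR_57679 at Fosl1 and OCR_80222 at Jun. From OCR_108734 and OCR_8546, 5 matches are shown in capitals because both regions passed the test in comparisons described later.
Junb OCR_108734, chr8:87509541-87509577, minus strand: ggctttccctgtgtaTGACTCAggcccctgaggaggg
Junb OCR_108734, chr8:87509571-87509607, minus strand: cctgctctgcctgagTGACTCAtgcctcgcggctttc
Junb OCR_108734, chr8:87509635-87509671, minus strand: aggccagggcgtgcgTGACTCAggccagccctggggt
Atf3 OCR_8546, chr1:193017664-193017700, minus strand: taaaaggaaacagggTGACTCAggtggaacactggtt
Atf3 OCR_8546, chr1:193017818-193017854, minus strand: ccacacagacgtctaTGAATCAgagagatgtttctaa

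The longer run TGACGTCA, a cyclic AMP response element, occurred only in the Jund gene-body region OCR_108000. The letters GGGAA, the core bound by Ikaros, are common: 59 of the 76 regions (77.6%) and 70.8% of all regions held them, as did 6 of the 8 upstream windows and 56.1% of all windows. They are marked in capitals in 4 stretches that carry the changes described below, namely the 250 bases before the Jun start and 3 distal regions.
Jun upstream, chr4:94718914-94719163, minus strand: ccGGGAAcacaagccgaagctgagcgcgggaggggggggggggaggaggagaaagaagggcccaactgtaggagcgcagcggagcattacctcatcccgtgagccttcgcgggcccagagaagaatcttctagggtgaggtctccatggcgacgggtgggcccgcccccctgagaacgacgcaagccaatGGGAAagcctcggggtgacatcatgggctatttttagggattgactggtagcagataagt
Fosb OCR_99062, middle part, chr7:19911159-19911458, plus strand: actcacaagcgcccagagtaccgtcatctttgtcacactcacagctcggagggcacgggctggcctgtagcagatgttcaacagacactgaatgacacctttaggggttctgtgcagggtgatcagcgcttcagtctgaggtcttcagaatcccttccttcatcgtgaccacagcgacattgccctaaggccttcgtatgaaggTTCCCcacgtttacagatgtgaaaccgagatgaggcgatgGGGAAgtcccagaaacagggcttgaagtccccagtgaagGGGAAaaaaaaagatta
Atf3 OCR_8543, chr1:193009884-193010127, plus strand: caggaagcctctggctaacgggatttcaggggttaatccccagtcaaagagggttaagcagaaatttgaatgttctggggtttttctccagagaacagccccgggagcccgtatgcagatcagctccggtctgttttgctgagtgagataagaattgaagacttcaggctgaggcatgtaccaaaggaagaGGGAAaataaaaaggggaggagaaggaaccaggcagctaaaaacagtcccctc
Junb OCR_108729, chr8:87498754-87498937, plus strand: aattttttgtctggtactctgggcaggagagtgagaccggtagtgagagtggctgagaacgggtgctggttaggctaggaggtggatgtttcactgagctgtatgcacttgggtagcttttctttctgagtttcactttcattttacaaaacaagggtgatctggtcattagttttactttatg
The Jun window held 2 matches to GGGAA, the Fosb stretch 3, the Atf3 region 1 and the Junb region none. A match describes letters and is not a measured binding site.

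At the start sites, Jun had the highest mean level of the 8 genes and Fosl1 the lowest in all 4 groups. In ex vivo WT Treg the mean of 3 libraries was 125 ± 4.05 (SD) FPKM at Jun, a core dimer partner. It was 65.2 ± 7.92 at Junb, 56.3 ± 4.20 at Fosl2 and 45.9 ± 2.94 at Jund. Fosb was at 35.8 ± 1.89, Fos at 32.0 ± 0.496, Atf3 at 28.7 ± 1.32 and Fosl1 at 19.7 ± 0.903. The ranges of neighbors in this order overlapped only for Junb and Fosl2. In stimulated WT Treg the gap closed: Jun, Fosl2, Junb and Jund lay between 54.0 and 72.3 FPKM with each overlapping the next, and Atf3 overlapped Fosl1. In stimulated Ikzf1-cko Treg no neighbors overlapped, and Jun was again highest at 109 ± 6.07 FPKM with Fosl2 next at 81.2 ± 2.44. The region for Fosl2 lay 0.343 kb before the annotated start of the gene and that for Jund 0.554 kb after it, since none spanned those outermost starts. The Jund region does span the start of another annotated Jund transcript. The 250 bases searched before Jund lie before the outermost start.

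**Figure D1:**
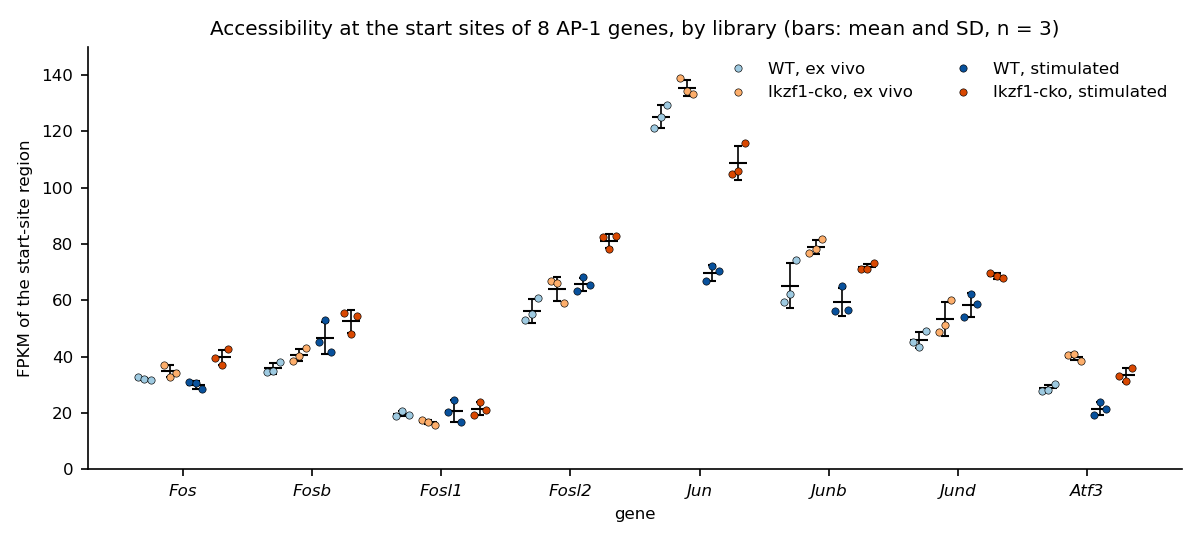
FPKM of the region at or nearest the start site of each AP-1 gene in all 12 libraries, with points for libraries and bars for the mean and SD of 3. Jun is near 125 FPKM in ex vivo WT and near 69.8 FPKM in stimulated WT, while the stimulated Ikzf1-cko libraries lie at 105 to 116 FPKM.

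The first comparison asked what loss of Ikaros did to these loci in resting Treg. With edgeR's quasi-likelihood test and Benjamini-Hochberg adjustment over all tested regions, a region was called when the adjusted p (FDR) was under 0.05 and the log2 fold change over 1 in either direction. Ex vivo, 1 of the 62 AP-1 regions was called higher in Ikzf1-cko, where the background was 0.588% of all tested regions, and none was called lower, where the background was 4.04%. By FDR alone, 15 (24.2%) were higher and 1 (1.61%) was lower, beside 8.78% and 12.7% of all tested regions. The median log2 difference of the AP-1 regions was 0.14. In a bulk library, a region that is open in fewer cells and one that is less open in each cell cannot be told apart. The AP-1 regions leaned to the strong end, with 22 of 62 in the strongest 20%, where the median of all regions was 0.12. All Ikzf1-cko libraries lay above all WT libraries at 23 regions and below them at 4, beside 14.9% and 21.0% of all tested regions. With 1 library left out, the count of higher regions by FDR alone ran from 10, without Ikzf1-cko replicate 2, to 16. The 15 higher regions lay at 4 genes, 5 upstream of Fosb, 5 around Junb, 3 at and upstream of Atf3 and 2 beside Fos, and none lay at Fosl1, Fosl2, Jun or Jund.

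Fosb, a Fos protein induced on activation, carried the called region, OCR_99062, in intergenic DNA 15.6 kb upstream (chr7:19911033-19911584). It read 15.3, 19.2 and 24.9 FPKM in the ex vivo WT libraries and 38.8, 44.5 and 43.0 FPKM in the Ikzf1-cko libraries. The groups did not overlap, and the lowest Ikzf1-cko library stood well above the highest WT library. The log2 difference was 1.05 ± 0.14 (SE, n = 3 and 3; edgeR quasi-likelihood adjusted p = 1.5e-06). The neighbors OCR_99063 and OCR_99064 rose by 0.81 ± 0.18 (edgeR adjusted p = 0.0015) and 0.92 ± 0.24 (edgeR adjusted p = 0.0069). OCR_99059 and OCR_99060, 9.4 and 11.4 kb upstream, rose by 0.60 and 0.38. OCR_99061 between them did not follow, with -0.38 ± 0.26 (edgeR adjusted p = 0.28). The start-site region differed by 0.17 ± 0.10 (edgeR adjusted p = 0.22).

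Junb, a Jun protein that partners Batf and Fos proteins in T cells, was more open on both sides of the gene in ex vivo Ikzf1-cko. The upstream region OCR_108733, which holds a CArG box, read 58.1, 50.2 and 57.3 FPKM in WT and 72.5, 77.0 and 80.5 FPKM in Ikzf1-cko. No library overlapped, and the log2 difference was 0.48 ± 0.08 (edgeR adjusted p = 1.0e-04). OCR_108734, with the 4 TGANTCA matches, read 69.3, 68.9 and 72.7 FPKM in WT and 83.1, 93.7 and 82.1 FPKM in Ikzf1-cko, a difference of 0.29 ± 0.07 (edgeR adjusted p = 0.0038). With the offsets by region strength this difference was 0.14 and did not pass (edgeR adjusted p = 0.145). The downstream region OCR_108730 rose by 0.41 ± 0.07, OCR_108735 by 0.50 ± 0.15 and the start site by 0.26 ± 0.08. The start site no longer passed without WT replicate 1, WT replicate 2 or Ikzf1-cko replicate 2 (edgeR adjusted p = 0.13, 0.129 and 0.0617), or with the offsets, at 0.14 (edgeR adjusted p = 0.2).

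Atf3, a stress-induced partner of Jun proteins, was more open in ex vivo Ikzf1-cko from the start site to 3.2 kb upstream. Its start-site region OCR_8542 read 27.6, 28.2 and 30.2 FPKM in WT and 40.5, 40.9 and 38.4 FPKM in Ikzf1-cko. The 2 genotypes were far apart, with a log2 difference of 0.47 ± 0.08 (edgeR adjusted p = 8.2e-05). OCR_8543 rose by 0.80 ± 0.17 (edgeR adjusted p = 0.0012) and OCR_8544 by 0.73 ± 0.18 (edgeR adjusted p = 0.0044).

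Fos, the founding member, rose in 2 flanking regions, OCR_25261 by 0.70 ± 0.21 (edgeR adjusted p = 0.019) and OCR_25264 by 0.60 ± 0.22 (edgeR adjusted p = 0.048), while its start site differed by 0.12 ± 0.08 (edgeR adjusted p = 0.28). At OCR_25264 no stimulated library reached 3.6 CPM, and of the ex vivo WT libraries only replicate 3 did. It thus entered the test only with the ex vivo Ikzf1-cko libraries, where it was higher. OCR_25261 did not pass without WT replicate 1, WT replicate 2 or Ikzf1-cko replicate 3, with edgeR adjusted p of 0.0781, 0.0559 and 0.0792. The Jun start differed by 0.11 ± 0.06 (edgeR adjusted p = 0.15). The single lower region, OCR_80222 in an intron of Gm12703 16.3 kb past the Jun start, fell by 0.58 ± 0.20 (edgeR adjusted p = 0.037), and it did not pass without any one of the 6 libraries or with the offsets.

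**Figure D2:**
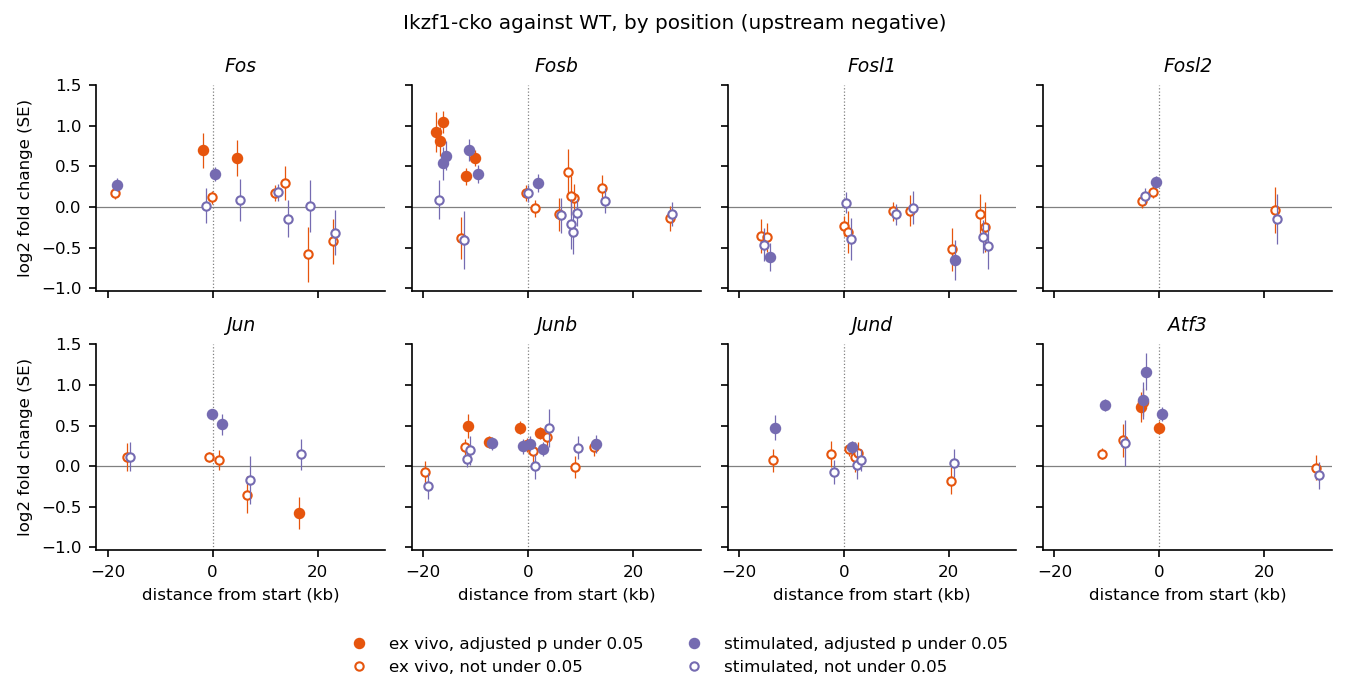
Log2 fold change of Ikzf1-cko over WT (y axis, with SE) against distance of the region's middle from the start site in kb (x axis, upstream negative), one panel per gene, for ex vivo and stimulated Treg. Filled points passed an adjusted p of 0.05: the 15 higher ex vivo regions sit upstream of Fosb, around Junb, at Atf3 and beside Fos.

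The same comparison after stimulation asked whether the genotypes differed in activated Treg. Here 1 of the 62 regions was called higher in Ikzf1-cko (background 1.16%) and none was called lower (background 20.2%). By FDR alone, 21 regions (33.9%) were higher and 2 (3.23%) lower, beside 20.4% and 30.7% of all tested regions, and the median difference was 0.09. All Ikzf1-cko libraries exceeded all WT libraries at 21 regions and lay below them at 4 (backgrounds 23.2% and 34.0%). Both lower regions were in the Fosl1 window, OCR_57679 and the Ctsw start-site region OCR_57684. OCR_57679 differed by -0.615 (edgeR adjusted p = 0.00348), but by -0.135 with quantile normalization, where it did not pass (limma adjusted p = 0.64). OCR_57684 met the filter of 3.6 CPM only with the stimulated WT libraries, where it was higher. With the offsets OCR_57684 was at -0.27 and did not pass (edgeR adjusted p = 0.445). The ex vivo and stimulated comparisons used different libraries, but of cells that may come from the same sorts. In both comparisons 11 regions were higher, 73.3% of the ex vivo list and 52.4% of the stimulated list. The same overlap over all tested regions was not counted, so these shares do not set the AP-1 regions apart.

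The called region was OCR_8543, 2.7 kb upstream of Atf3 (chr1:193009884-193010127). It read 13.6, 12 and 11.9 FPKM in stimulated WT and 26.7, 30.0 and 27.9 FPKM in stimulated Ikzf1-cko. The groups were widely separated, and the log2 difference was 1.17 ± 0.23 (edgeR adjusted p = 1.2e-04). OCR_8544 next to it rose by 0.81 ± 0.23 (edgeR adjusted p = 0.0035) and the Atf3 start by 0.64 ± 0.09 (edgeR adjusted p = 1.9e-06). The Atf3 region 10.1 kb upstream, OCR_8546 (chr1:193017354-193018404), read 48.5, 48.8 and 54.4 FPKM in WT and 79.4, 89.5 and 86.3 FPKM in Ikzf1-cko. That is a log2 difference of 0.75 ± 0.08 (edgeR adjusted p = 2.2e-08), or 0.36 with the offsets (edgeR adjusted p = 1.5e-04), while ex vivo it was 0.15 ± 0.07 (edgeR adjusted p = 0.11).

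Jun had the smallest p of the stimulated comparison. Its start-site region OCR_80225 (chr4:94718316-94720221), which also spans the start of the non-coding BC042782, read 66.7, 72.3 and 70.5 FPKM in WT and 105, 106 and 116 FPKM in Ikzf1-cko. Each Ikzf1-cko library exceeded each WT library by a wide margin, with a log2 difference of 0.64 ± 0.06 (edgeR adjusted p = 5.7e-09). A region in the Jun coding exon, OCR_80224, rose by 0.52 ± 0.13 (edgeR adjusted p = 0.0013), but with the offsets it was at 0.27 and did not pass (edgeR adjusted p = 0.0999).

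The remaining start sites differed by less. Fos rose by 0.40 ± 0.08 (edgeR adjusted p = 2.3e-04), Fosl2, its relative that lacks the strong activation domain of Fos, by 0.31 ± 0.07 (edgeR adjusted p = 9.5e-04), Junb by 0.28 ± 0.09 (edgeR adjusted p = 0.012) and Jund, the constitutively expressed Jun gene, by 0.24 ± 0.08 (edgeR adjusted p = 0.013). With offsets by region strength the values for Fosl2, Junb and Jund turned to -0.08, -0.07 and -0.16, and that for Fos became 0.05, none past the threshold, so their direction depends on the scale. The Jun and Atf3 starts still passed FDR, with smaller differences of 0.19 (edgeR adjusted p = 0.006) and 0.29 (edgeR adjusted p = 0.0056), and OCR_8543 was at 1.26. Of the 21 higher regions, 8 stayed past FDR in the same direction under these offsets, against 13 of the 15 in the ex vivo comparison. Fosb at 0.17 and Fosl1 at 0.05 did not pass with either scale.

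**Figure D3:**
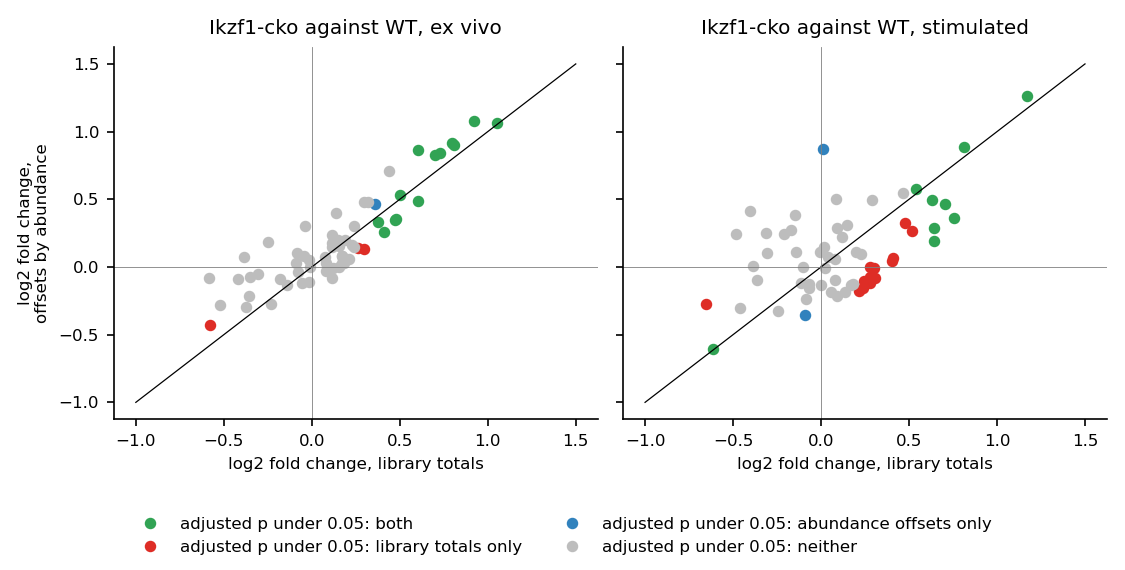
Log2 fold change of Ikzf1-cko over WT for the 62 tested AP-1 regions with library totals (x axis) and with offsets that even out region strength (y axis), ex vivo on the left and stimulated on the right. Of the 15 regions that were higher ex vivo with library totals, 13 also pass with the offsets, against 8 of the 21 that were higher in stimulated Ikzf1-cko.

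Stimulation moved these loci in both directions. In WT Treg, 2 regions were called higher (background 17.7%) and 2 lower (background 2.32%), and by FDR alone 15 (24.2%) were higher and 15 (24.2%) lower, beside 26.9% and 20.7% of all tested regions. Of the 12386 regions behind the 17.7%, 8990 were in the weakest 20% of tested regions, which held 4 of the 62 AP-1 regions. In Ikzf1-cko Treg, 2 were called higher (background 3.02%) and 3 lower (background 0.632%), and by FDR alone 15 (24.2%) rose and 16 (25.8%) fell, beside 12% and 11.5%. All stimulated WT libraries exceeded all ex vivo WT libraries at 15 regions and lay below them at 12 (backgrounds 29.8% and 24.3%), and in Ikzf1-cko the counts were 22 and 18 (backgrounds 20.4% and 17.3%). Without stimulated WT replicate 2 only 7 regions were higher in WT by FDR alone. With the offsets, 13 of the 15 higher and 10 of the 15 lower WT regions still passed, as did 14 of 15 and 16 of 16 in Ikzf1-cko. The median change was 0.09 in WT and 0.12 in Ikzf1-cko. The 2 genotypes used different libraries here, and 10 regions rose and 13 fell in both. The 10 made up 66.7% of each list, and the 13 made up 86.7% of the WT list and 81.2% of the Ikzf1-cko list. How far the lists of all tested regions overlap was not counted, so these shares have no background.

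By FDR alone, 5 of 6 tested Atf3 regions fell in WT, 4 of 14 at Fosb, 3 of 11 at Junb and 2 of 5 at Jun. The small Junb region OCR_108729, 3.7 kb past the start in intergenic DNA (chr8:87498754-87498937), read 46.0, 46.8 and 53.7 FPKM in ex vivo WT and 13.5, 23.8 and 15.8 FPKM in stimulated WT. In Ikzf1-cko it read 70.4, 62.8 and 55.3 FPKM ex vivo and 26.5, 24.3 and 22.8 FPKM stimulated. No stimulated library of either genotype reached the lowest ex vivo library. It fell by 1.48 ± 0.22 in WT (edgeR adjusted p = 3.6e-06) and by 1.37 ± 0.16 in Ikzf1-cko (edgeR adjusted p = 1.6e-07). OCR_108734, with the 4 TGANTCA matches, went from 68.9 to 72.7 FPKM ex vivo to 42.0 to 50.5 FPKM in stimulated WT. It fell by 0.64 ± 0.08 there (edgeR adjusted p = 2.7e-07) and by 0.66 ± 0.07 in Ikzf1-cko (edgeR adjusted p = 5.5e-08). With the offsets the WT value was -0.37 and still passed (edgeR adjusted p = 1.7e-04). The Junb start differed by -0.15 in WT and -0.14 in Ikzf1-cko, and neither passed.

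All 5 tested Atf3 regions from the start to 10.1 kb upstream fell in both genotypes. The start-site region fell by 0.43 ± 0.10 in WT (edgeR adjusted p = 6.0e-04) and by 0.26 ± 0.08 in Ikzf1-cko (edgeR adjusted p = 0.013). The Ikzf1-cko fall at the start did not pass without ex vivo or stimulated Ikzf1-cko replicate 2 (edgeR adjusted p = 0.0602 and 0.0862), with limma on log2(FPKM + 1) (adjusted p = 0.0843) or with quantile normalization (limma adjusted p = 0.316). With the offsets by region strength 2 of the 5 WT falls no longer passed, the start at -0.18 (edgeR adjusted p = 0.0979) and OCR_8544 at -0.53 (edgeR adjusted p = 0.0957). The small region OCR_8545, which holds a TGANTCA match, fell by 0.96 ± 0.27 and 0.99 ± 0.20.

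Upstream of Fosb, OCR_99061 (chr7:19907865-19908036) fell by 1.14 ± 0.32 in WT (edgeR adjusted p = 0.0042) and by 1.16 ± 0.29 in Ikzf1-cko (edgeR adjusted p = 0.0034). No stimulated library reached 3.6 CPM there, so this region entered the test only through ex vivo libraries, where it was higher. The WT libraries ran 30.2, 18.5 and 37.9 FPKM ex vivo and 13.5, 17.0 and 8.46 FPKM stimulated, without overlap but with 18.5 and 17.0 close together, and the WT call was lost without ex vivo WT replicate 3 (adjusted p = 0.0688). OCR_99062 fell by 1.01 ± 0.13 in Ikzf1-cko (edgeR adjusted p = 5.7e-07), from 38.8 to 44.5 FPKM down to 18.4 to 23.4 FPKM, and by 0.60 ± 0.18 in WT (edgeR adjusted p = 0.0082). With the offsets the WT value was -0.38 and did not pass (edgeR adjusted p = 0.105). The stimulated Ikzf1-cko libraries thus lay in the range of the ex vivo WT libraries. In contrast, the Fosb start rose by 0.38 ± 0.11 and 0.38 ± 0.09 (edgeR adjusted p = 0.0058 and 0.0029), and the WT rise did not pass without stimulated WT replicate 2 (edgeR adjusted p = 0.0578).

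Rises were found at Fos, Jund and the Fosl1 window. The Fos region 11.7 kb past the start, OCR_25265, which holds a CArG box (chr12:86826543-86827441), read 23.8, 27.6 and 26.3 FPKM in ex vivo WT and 28.9, 36.4 and 37.0 FPKM in stimulated WT. In Ikzf1-cko it went from 27.6, 30.1 and 30.6 FPKM to 36.5, 38.3 and 40.4 FPKM. Stimulated libraries were above ex vivo libraries in both genotypes, with rises of 0.38 ± 0.11 in WT (edgeR adjusted p = 0.0055) and 0.39 ± 0.09 in Ikzf1-cko (edgeR adjusted p = 0.0022). The Fos start itself differed by -0.09 in WT and 0.19 in Ikzf1-cko, neither past the threshold. OCR_25268, 18.2 kb past the Fos start (chr12:86833008-86833438), was called higher in Ikzf1-cko at 1.03 ± 0.30 (edgeR adjusted p = 0.013), from 3.78 to 4.56 FPKM up to 7.32 to 9.31 FPKM, and lost the call without stimulated Ikzf1-cko replicate 3 (adjusted p = 0.0628). No ex vivo Ikzf1-cko library reached 3.6 CPM there. Without the stimulated Ikzf1-cko libraries, where it was higher, OCR_25268 would not have been tested. With the offsets it was at 0.72, under the fold threshold (edgeR adjusted p = 0.0406). With quantile normalization it was at 0.67 and did not pass (limma adjusted p = 0.163).

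At Jund, OCR_107999, 2.0 kb upstream, rose by 0.96 ± 0.17 in WT (edgeR adjusted p = 3.2e-05) and by 0.74 ± 0.13 in Ikzf1-cko (edgeR adjusted p = 1.2e-04), and the gene-body region OCR_108000 rose by 0.34 and 0.37. Fosl2 rose at its promoter by 0.21 ± 0.08 in WT (edgeR adjusted p = 0.024) and 0.34 ± 0.07 in Ikzf1-cko (edgeR adjusted p = 4.8e-04). The WT rise did not pass with TMM factors (edgeR adjusted p = 0.0988), with DESeq2 (adjusted p = 0.138) or without ex vivo WT replicate 1, ex vivo WT replicate 2 or stimulated WT replicate 2 (edgeR adjusted p = 0.0916, 0.0761 and 0.0815). With the offsets by region strength it was 0.49 (edgeR adjusted p = 9.3e-07). The called rises in the Fosl1 window lay over the start of another gene, Efemp2, 26 kb away. OCR_57685 rose by 1.29 ± 0.24 in WT and 1.01 ± 0.20 in Ikzf1-cko, and OCR_57686 by 1.01 ± 0.31 in WT. Neither region reached 3.6 CPM in an ex vivo library, so both entered the test only through stimulated libraries, where they were higher. OCR_57686 did not pass without ex vivo WT replicate 3 (edgeR adjusted p = 0.0584), with the offsets, at 0.46 (edgeR adjusted p = 0.224), or with quantile normalization, at 0.40 (limma adjusted p = 0.143). The start site of Fosl1, a Fos-related antigen gene, differed by 0.07 in WT (edgeR adjusted p = 0.70) and rose by 0.36 ± 0.11 in Ikzf1-cko (edgeR adjusted p = 0.02), which did not pass without replicate 2 of either Ikzf1-cko group (edgeR adjusted p = 0.0555 and 0.131), with TMM factors (edgeR adjusted p = 0.0737) or with DESeq2 (adjusted p = 0.106).

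**Figure D4:**
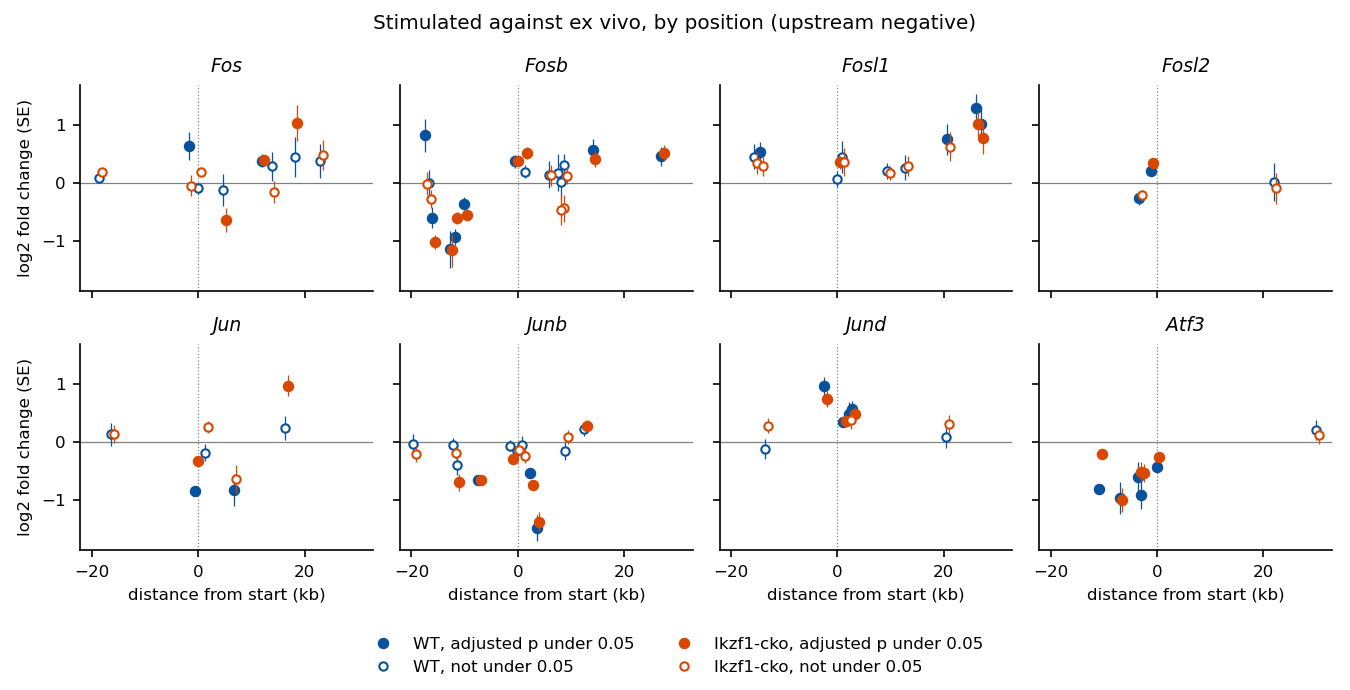
Log2 fold change of stimulated over ex vivo libraries (y axis, with SE) against distance of the region's middle from the start site in kb (x axis, upstream negative), one panel per gene, for WT and Ikzf1-cko Treg. Filled points passed an adjusted p of 0.05, and filled falls in both genotypes include the Jun start and regions at Atf3, around Junb and upstream of Fosb.

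The interaction asked whether stimulation acted differently in the 2 genotypes. No region was called (backgrounds 0.579% higher and 1.40% lower by edgeR). At an unadjusted p under 0.05 by edgeR there were 8 of the 62. The share of all tested regions at that level was not counted, so the 8 cannot be judged. DESeq2 and limma also called none. By FDR alone 2 regions, 3.23% of the 62, had a higher effect of stimulation in Ikzf1-cko and none a lower one, beside 5.66% and 1.82% of all tested regions. The first was the Jun start, which fell by 0.85 ± 0.06 in WT (edgeR adjusted p = 2.1e-11) and by 0.32 ± 0.06 in Ikzf1-cko (edgeR adjusted p = 1.1e-04). Its ex vivo libraries read 121, 125 and 129 FPKM in WT and 139, 134 and 133 FPKM in Ikzf1-cko, without overlap, but the ex vivo difference of 0.11 did not pass. The difference of the falls was 0.53 ± 0.08 (edgeR adjusted p = 2.6e-04) and 0.27 with offsets by region strength (edgeR adjusted p = 0.025). The second was OCR_8546 upstream of Atf3, which fell by 0.80 ± 0.08 in WT and by 0.20 ± 0.07 in Ikzf1-cko (edgeR adjusted p = 0.032). The difference was 0.60 ± 0.11 (edgeR adjusted p = 7.1e-04) and 0.36 with the offsets (edgeR adjusted p = 0.02). With the offsets 2 Junb regions also passed, with a lower effect in Ikzf1-cko, OCR_108733 at -0.46 (edgeR adjusted p = 0.0188) and OCR_108730 at -0.43 (edgeR adjusted p = 0.0124). With library totals they were at -0.23 and -0.20 (edgeR adjusted p = 0.24 and 0.283).

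**Figure D5:**
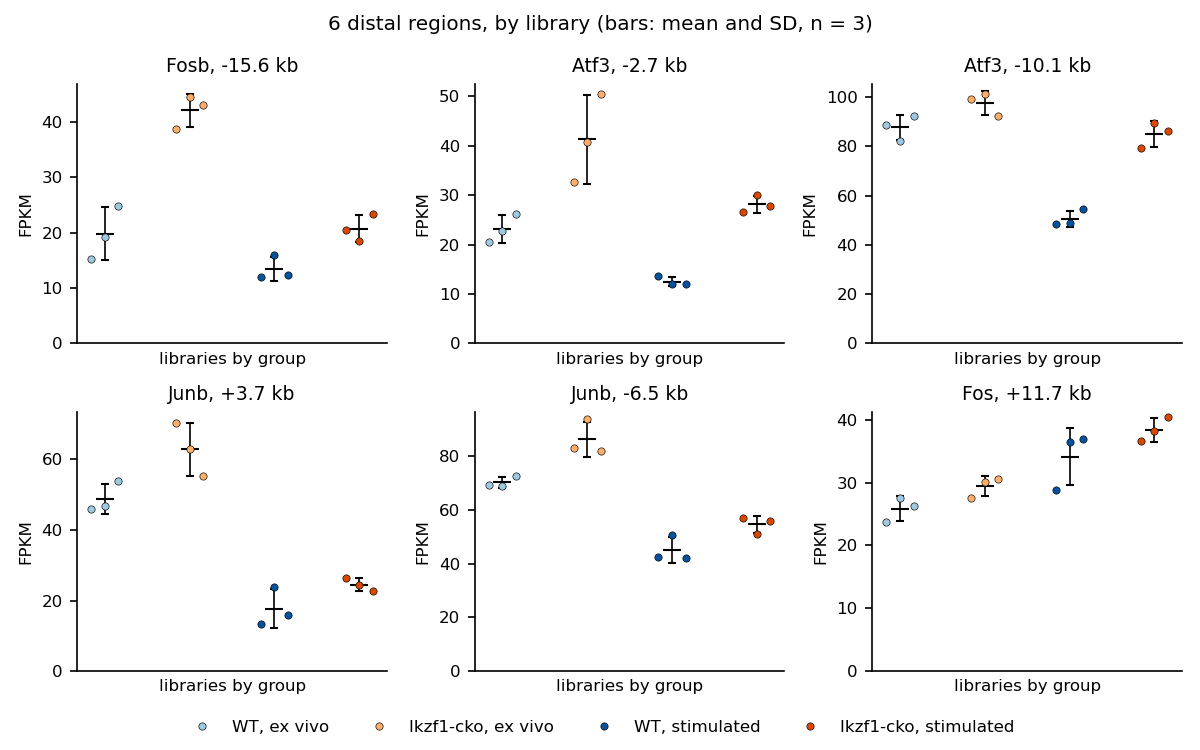
FPKM of 6 distal AP-1 locus regions in each library, titled by gene and distance of the region from the start site in kb, with the mean and SD of 3. Fosb at 15.6 kb upstream is highest in ex vivo Ikzf1-cko, the 2 Atf3 regions are lowest in stimulated WT, and both Junb regions are lower after stimulation in either genotype.

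Summed over all regions of a window, as CPM, Junb led with 363 ± 14.5 (SD, n = 3) in ex vivo WT and 453 ± 14.7 in ex vivo Ikzf1-cko. Stimulation left it at 291 ± 21.1 and 338 ± 5.06. Jun stood at 272 ± 11.9, 291 ± 7.27, 164 ± 5.51 and 246 ± 14.1 in the same order, and Atf3 at 168 ± 5.57, 204 ± 7.14, 113 ± 6.85 and 171 ± 6.10. In each of these genes the stimulated WT group was the lowest. Fosl1 summed lowest in every group, at 71.8 ± 5.08, 62.9 ± 2.09, 92.6 ± 14.5 and 79.4 ± 2.82. These sums grow with the number and length of regions and are not compared between genes by test.

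Other genes of the pathway were counted in the same tests. Of 82 tested regions at 14 kinase and factor genes upstream of AP-1, 15.9% were higher and 3.66% lower in ex vivo Ikzf1-cko by FDR alone, with a median of 0.09. At 12 other AP-1-like bZIP genes, such as Batf, Bach2 and Maf, 9.91% of 111 regions were higher and 16.2% lower, with a median of -0.02. At 16 other immediate early genes, such as Egr1 and Nr4a1, 24.4% of 135 were higher and 2.96% lower, with a median of 0.17. After stimulation in WT, falls by FDR alone made up 30.5%, 39.6% and 35.6% of these 3 lists, beside 20.7% of all tested regions and 24.2% of the AP-1 factor regions.

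Among 11699 other genes' start-site regions, those whose log2(CPM + 1) followed a member most closely over the 12 libraries were listed as a description. Jun was followed by Osbpl3, Nucb2 and Prcp (Pearson r of 0.996, 0.995 and 0.992), Atf3 by Arid4a, Polr1d and Ndfip2 (0.989, 0.986 and 0.986) and Junb by Epb4.1l2, Ogfod1 and Zfp91 (0.977, 0.972 and 0.972). The best matches were Nol9 for Fos (0.961), Hdgf for Fosb (0.972), Six4 for Fosl1 (0.928), Rod1 for Fosl2 (0.967) and Hinfp for Jund (0.985). The libraries share group, depth and the split between weak and strong regions, and genes are not independent of one another.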

How the data were processed

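The authors aligned ATAC-seq reads with bowtie2, removed duplicates, called peaks with macs2 in each replicate and merged them with bedtools into 1 set of regions. The labels give mm9, while the methods text names the human build hg19. The region coordinates and chromosome names are those of mouse mm9, which was used. The deposited table holds, for each region and library, a count of reads, and an FPKM value, in which the authors scaled each count to region length and to the sum of counts in its library. A deposited list of the authors' own comparisons (fold changes and p-values) was not used.

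Members were regions overlapping a gene body ± 20 kb of the mm9 annotation. The members and lists were chosen with earlier results of these data known. Regions with at least 3.6 CPM in 3 or more libraries were tested. The counts of all 12 libraries were fitted with edgeR 4.0.16 (R 4.3.3; glmQLFit, glmQLFTest), with group means and library totals as the scale, and p-values were adjusted by the Benjamini-Hochberg method over 69957 regions. FPKM served for levels. The SE was derived from the fitted log2 fold change and its F statistic. Alternatives used TMM, DESeq2 1.42.0, limma 3.58.1 on log2(FPKM + 1), log2(FPKM + 0.5) or quantile-normalized values, loess offsets against region strength, other filters and windows, a replicate block, and each replicate left out. With 3 libraries per group and 4808916 to 15355521 reads each, precision rests on the spread between libraries. The methods call the replicates biological. The sources used here do not say which animal gave which library, and p-values measure the spread between these libraries. The main fit took ex vivo and stimulated libraries as unpaired, although the sorted cells were split between these conditions. The chi-square per degree of freedom between replicates was 1.19 to 3.35, so no library was a copy. Counts were also simulated for the ex vivo genotype comparison over 69957 regions. Recovery meant an edgeR adjusted p under 0.05 in the right direction, without the fold threshold of a call. By this rule 78.0% of 100 regions changed by 1 (log2) and 98.0% of 100 changed by 2 were recovered, and 4 unchanged regions passed. Unchanged regions were simulated with the same mean in all groups, scaled by library totals alone. The real ex vivo genotype difference had a median of -0.61 in the weakest 20% of tested regions and 0.12 in the strongest 20%. The simulation lacks this dependence on region strength, so the 4 passes do not measure its effect.

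Named were each gene's start-site region, the region with the smallest p in each comparison and every called region, and for each start site the 3 most similar genes. Other regions were named after their values were seen, including the neighbors of called regions and the regions holding motif matches. Motifs were sought in the mm9 sequence of 118479 regions. The remaining regions, which lay off the named chromosomes or ran past a chromosome's end, were not scanned. The sequence of 1 match is not reported here.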

Additional observations from a re-analysis of the deposited data

Results flagged for a closer look

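The difference between the genotypes in the effect of stimulation passed an adjusted p of 0.05 by edgeR's interaction test at 2 AP-1 locus regions. At the Jun start-site region, OCR_80225, the effect in Ikzf1-cko minus that in WT was 0.53 ± 0.08 (SE) on the log2 scale (edgeR adjusted p = 2.6e-04, 3 libraries in each of 4 groups). At OCR_8546, upstream of Atf3, it was 0.60 ± 0.11 (edgeR adjusted p = 7.1e-04). Both contrasts include the stimulated WT libraries, which differ from the other 9 in the share of reads in weak and strong regions. In the strongest 20% of all tested regions the median of the same difference was 0.20. Both regions passed under each of the 21 alternatives, with lowest values of 0.23 at Jun and 0.35 at OCR_8546.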

How the results depend on the processing

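The direction of small genotype differences after stimulation depended on how region strength was handled, since the stimulated WT libraries put more reads in weak regions. With loess offsets and with quantile normalization the stimulated genotype difference turned from higher to lower at Jund OCR_108000 (-0.16 and -0.15), at Junb OCR_108732 (-0.0717 and -0.103) and OCR_108734 (-0.119 and -0.0873) and at Fosl2 OCR_85239 (-0.0832 and -0.0714), and the WT stimulation effect at OCR_108732 turned to 0.20 with quantile normalization. Of 1215 alternative values for 73 named values, 1128 kept their side of the threshold, 59 lost it, 19 gained it and 9 reversed. Among the 1128, 39 changed sign with neither value past the threshold.

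Counts of called regions were small, and 69 of 100 alternative counts were within 1.5 times. The main counts were 1 (cko over WT ex vivo), 1 (stimulated), 4 (stimulation in WT), 5 (in Ikzf1-cko) and 0 (interaction). Ex vivo, TMM, loess offsets, DESeq2, no filter and a 50 kb window each gave 2, and quantile normalization and a 10 kb window gave 0. In the stimulated comparison no filter gave 5 and a minimum in all 12 libraries gave 0. For stimulation in WT, no filter gave 9, the stricter filter 0 and the 10 kb window 1. For stimulation in Ikzf1-cko, loess offsets and limma on log2(FPKM + 0.5) gave 3, limma on log2(FPKM + 1) gave 2, quantile normalization, the stricter filter and the 10 kb window gave 1, no filter gave 9 and the 50 kb window 8. The interaction gave 1 in the 50 kb window. Without a fold threshold the counts were 16, 23, 30, 31 and 2. Leaving out 1 replicate gave 1 to 2, 1 to 2, 3 to 6, 3 to 5 and 0 in the same order. The cause was not tested, except that a filter or window changes which regions enter. By FDR alone the ex vivo count of higher regions was 23 with TMM, 14 with loess offsets and 5 with quantile normalization, and the stimulated count was 21, 9 and 13. Fits on only the libraries compared gave 1, 1, 4 and 5, and the interaction needs all 12. The counts for ex vivo genotype and for stimulation in Ikzf1-cko thus held with the stimulated WT libraries out of the fit. The tested set was still chosen with all 12 libraries, so their part in the filter was not tested.

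The labels do not say that a number marks a mouse or batch, so the numbers were not taken to pair samples. Deviations of same-numbered libraries from their group means correlated at -0.36 to 0.24 over regions. Libraries of unlike number reached 0.40, so these correlations cannot decide whether the numbers pair samples. With the replicate block the counts were 1, 1, 3, 5 and 0. Fold changes of regions near the filter are the least precise.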

Other observations

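Of all tested regions, 1.16% and 20.2% were called higher and lower in stimulated Ikzf1-cko Treg, the latter mostly in the weakest 20%. Among 135 tested regions at immediate early genes outside the AP-1 families, 3 were called higher and 2 lower there. The higher ones lay near Klf6, a Krüppel-like factor (log2 difference of 1.04 ± 0.15 at OCR_27417 and 1.16 ± 0.17 at OCR_27420), and Ier5 (1.24 ± 0.17 at OCR_6313). The lower ones lay near the orphan nuclear receptor gene Nr4a3, at OCR_78534 and OCR_78540, and fell by 1.06 ± 0.28 and 1.34 ± 0.39. No stimulated Ikzf1-cko library reached 3.6 CPM at either Nr4a3 region. Both entered the test only with the stimulated WT libraries, where they were higher. With offsets by region strength the higher ones were at 0.81 and 0.99 (Klf6) and 1.15 (Ier5) and still passed, while those near Nr4a3 were at -0.49 and 0.28 and did not (edgeR adjusted p = 0.154 and 0.486). In WT Treg, stimulation lowered both Klf6 regions, by 1.44 ± 0.15 and 1.36 ± 0.17, and raised OCR_43330 near Nr4a1 by 1.28 ± 0.23. All had an edgeR adjusted p under 0.05.

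Among 111 tested regions at other bZIP genes, all 10 called lower after stimulation of WT Treg lay at Bach2, a repressor that competes with AP-1 at its sites, and their log2 changes ran from -1.01 to -1.35. In Ikzf1-cko Treg 3 Bach2 regions were called lower. Of all tested regions, 2.32% were called lower in WT and 0.632% in Ikzf1-cko. With the offsets all 10 WT falls still passed FDR, at -0.78 to -1.22. Batf, a partner of Jun proteins, held a region, OCR_25288, that was higher in ex vivo Ikzf1-cko by 1.34 ± 0.29. It rose on stimulation of WT by 1.69 ± 0.31. Its mean level was low, at 1.659 FPKM in ex vivo WT and 4.328 FPKM in ex vivo Ikzf1-cko. After stimulation it was 5.498 FPKM in WT and 4.498 FPKM in Ikzf1-cko. No ex vivo WT library reached 3.6 CPM there, so OCR_25288 entered the test only through the other groups, where it was higher. This region was called in the interaction at -1.63 ± 0.39 (edgeR adjusted p = 0.0094) and stood at -1.30 with the offsets (edgeR adjusted p = 0.0473). Whether the counts of called regions at these genes differed between genotypes was not tested.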
